A study of Saccharomyces cerevisiae with 8 samples.

Results

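The Y' element ATP-dependent helicase genes lie in the repeats next to the telomeres of budding yeast, Saccharomyces cerevisiae. The 10 genes described here were chosen by name: YLL066C, YLL067C and YRF1-1 to YRF1-8, which are 10 of the 6713 open reading frames quantified in each library. They were picked with their fold changes between the groups already known. Their fold changes and adjusted p-values are therefore given as a description of the fit across all genes and support nothing further.

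RNA was sequenced from mid-exponential cultures (50 ml, harvested at an OD600 of about 0.6) of the BY4741 strain background, with 2 biological replicates in each of 4 groups. Inductant 1 and inductant 2 are wild-type cells in which VTS1, the gene of an RNA-binding protein, had been overexpressed for 48 h from a plasmid that was then lost, followed by passaging for several generations; the labels call both [SMAUG+], the name of a prion state. Naive cells are wild-type and untreated, and the vts1 deletion group is untreated and lacks VTS1. Each inductant group goes back to 1 overexpression event, so its replicates show the spread between cultures of that event and not the spread between events.

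Library depth ranged from 18431474 to 27501966 estimated counts. VTS1 had 472 to 794 estimated counts in the 6 libraries labelled wild-type and 0 and 2 in the deletion libraries. The marker genes LEU2, MET17 and URA3 were listed at 0 in all 8 libraries. Of the genes that define mating type a, STE2 (3894 to 5455 estimated counts) and BAR1 (2147 to 3443) were present, while MFA1 and MFA2 were listed at 0. STE3, the receptor gene of the opposite mating type, had 93 to 130.

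Y' elements are long repeats that many yeast chromosome ends carry in single or tandem copies. They hold an open reading frame for a helicase-like protein, and the YRF1 genes (Y' element recombination and helicase genes) are annotated copies of it. In yeast cells that survive without telomerase, Y' elements are amplified by recombination and the helicase is induced. Genes near yeast telomeres can be silenced by the Sir proteins, to an extent that differs between ends. VTS1 is the yeast relative of Drosophila Smaug and binds hairpins in messenger RNA.

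The copies are so alike that most of their sequence does not tell them apart. In the RefSeq genome of build R64, whose coding lengths equal those in the deposited files for all 10 genes, the 10 frames hold 7 distinct coding sequences. YRF1-1 (YDR545W, chrIV:1526321-1531711, + strand), YRF1-5 (YLR467W, chrXII:1072508-1077898, +) and YRF1-8 (YOR396W, chrXV:1085473-1090863, +) are identical over 5391 bases. YRF1-3 (YGR296W, chrVII:1084864-1090591, +) and YRF1-7 (YPL283C, chrXVI:280-6007, − strand) are identical over 5580 coding bases in 2 exons. The remaining frames are YRF1-2 (YER190W, chrV:571480-576525, +, 5046 bases), YRF1-4 (YLR466W, chrXII:1067087-1071235, +, 4149 bases), YRF1-6 (YNL339C, chrXIV:371-6098, −, 5580 bases in 2 exons), YLL067C (chrXII:585-4301, −) and YLL066C (chrXII:6120-9836, −). The last pair, each of 3618 bases in 2 exons, lie in tandem at the left end of chromosome XII. YRF1-4 and YRF1-5 lie in tandem at its right end. The 10 frames stand at 8 chromosome ends. YLL066C and YRF1-4, the inner copies of the tandem pairs, lie 6119 and 6942 bases from the end, and the other 8 frames within 584 bases of it.

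Each frame was cut into all its words of 31 bases and each word was looked up, on both strands, in 6014 annotated coding sequences. The files hold 6713 frames, 687 of them without an annotation, so not every frame that reads were divided among was searched. The median word of a Y' helicase gene was found in 15 to 17 frames, and the most widely shared words in 20. Between 86.4% and 100% of the words of a gene were also found in frames outside the 10, and 26 such frames shared at least 1 word. YRF1-6 differs from YRF1-3 and YRF1-7 at only 2 bases, A4821G and A4832T (the YRF1-3 base, the position counted from 1 at the 5′ end of the coding sequence, then the YRF1-6 base). The stretch around them, at positions 4801 to 4852, is the only place where a read could separate these genes. The differing bases are in capitals, and the positions are chrVII:1089812-1089863 (+), chrXVI:1008-1059 (−) and chrXIV:1099-1150 (−):
YRF1-3: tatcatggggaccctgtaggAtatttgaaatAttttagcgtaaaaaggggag
YRF1-7: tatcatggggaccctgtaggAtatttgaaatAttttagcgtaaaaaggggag
YRF1-6: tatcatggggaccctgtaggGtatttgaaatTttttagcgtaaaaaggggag
All 42 words of YRF1-6 that cover either base were also found in YLL066C, YLL067C and 3 frames outside the 10 genes (YML133C, YHR219W and YFL068W), so YRF1-6 has no word of its own. YRF1-3, YRF1-7 and YLL066C have none either. Another frame outside the 10 genes, YHL050C, held 28 of the 42 words.

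The other 4 sequences have some. YLL067C had 37 words of 3588 found in no other searched frame, YRF1-2 had 62 of 5016 and YRF1-4 had 69 of 4119. The sequence shared by YRF1-1, YRF1-5 and YRF1-8 had 269 of 5361 that were found in no other searched sequence. Of each sequence a stretch with words not found in other searched sequences is shown, to let the copies be told apart by eye. The capital in each marks the base that all those words of the stretch hold. It need not differ from every other copy. The capital of YLL067C is the same base in YLL066C, and the bases that differ between these copies are given below. The positions are chrXII:1871-1931 (−), chrV:571583-571643 (+), chrXII:1067183-1067243 (+) and chrIV:1527064-1527124 (+):
YLL067C: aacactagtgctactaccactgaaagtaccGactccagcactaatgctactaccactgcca
YRF1-2: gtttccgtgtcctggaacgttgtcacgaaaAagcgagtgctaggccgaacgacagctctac
YRF1-4: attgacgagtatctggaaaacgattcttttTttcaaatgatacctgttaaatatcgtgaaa
YRF1-1: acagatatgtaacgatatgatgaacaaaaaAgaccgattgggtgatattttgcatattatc
In the tandem pair YLL066C and YLL067C, the same stretch of YLL066C (chrXII:7406-7466, −) differs from that of YLL067C by C2292T, A2309G, G2315A and T2331C (YLL066C base first). In the copy below the capitals mark those bases:
YLL066C: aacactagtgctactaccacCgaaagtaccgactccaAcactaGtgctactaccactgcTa

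**Figure D1:**
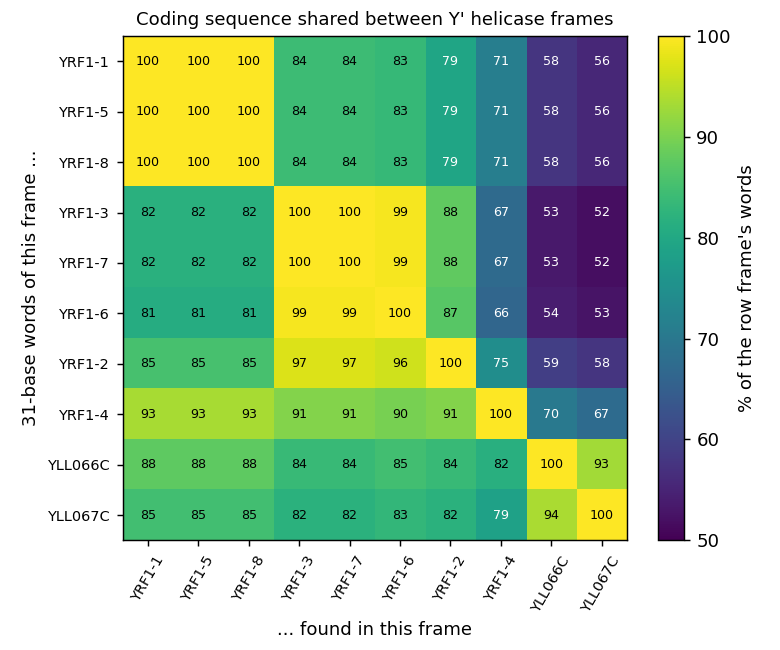
Percent of the 31-base words of each Y' helicase coding sequence (rows) that are found in each other one (columns). YRF1-1, YRF1-5 and YRF1-8 share all words, as do YRF1-3 and YRF1-7.

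The estimated counts come from a program that divides reads of shared sequence among the frames they match. Identical frames got identical values in every library. A value of a single gene is therefore partly the outcome of that division, and the sum over the 10 genes does not depend on how reads were divided within them. Because strand use is not given, reads from small frames on the opposite strand cannot be told apart from these. Adding the overlapping small frames to the sum gave a log2 fold change of 0.42 in both inductants against naive, as without them.

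The summed level of the 10 genes was lowest in naive cells. In CPM (counts relative to library size, scaled between libraries by edgeR's TMM method), the sum was 968 and 1060 in the naive libraries, 1352 and 1484 in inductant 1, 1279 and 1320 in inductant 2, and 1312 and 1272 in the vts1 deletion. Every library of the other 3 groups lay above both naive libraries. The sums rest on 20335 to 38614 estimated counts per library, which is 0.0943% to 0.143% of all counts.

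The inductants as 1 group were higher than naive by 0.42 ± 0.06 (log2, SE) with an adjusted p of 0.00222 (edgeR's quasi-likelihood test, Benjamini-Hochberg adjustment over all rows tested). Inductant 1 was higher than naive by 0.48 ± 0.07 (adjusted p = 0.00728) and inductant 2 by 0.36 ± 0.07 (adjusted p = 0.0112), by the same edgeR test. The inductants did not pass the test against each other, with a log2 difference of −0.13 ± 0.07 for inductant 2 against inductant 1 (adjusted p = 0.436). Without inductant 1 replicate 2, the adjusted p of inductant 1 against naive was 0.0645. That of inductant 2 was 0.0686 without its replicate 1 and 0.0817 without its replicate 2, and the call in both inductants together held whichever single library was left out.

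The vts1 deletion was higher than naive by 0.35 ± 0.07 in the same sum (adjusted p = 0.00498 by edgeR; 0.0633 without deletion replicate 1). This difference depended on which frames were added. Over the 10 genes and the 26 other frames that share a word with them, 36 in all, the summed CPM was 1434 and 1636 in naive, 1674 and 1610 in the deletion, 1992 and 2147 in inductant 1 and 1878 and 1986 in inductant 2. The deletion libraries there overlapped the naive ones, while all 4 inductant libraries lay above both.

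In the 36-frame sum the deletion differed from naive by 0.10 ± 0.08 on the log2 scale (edgeR, adjusted p = 0.38), and both inductants by 0.38 ± 0.07 (adjusted p = 0.00595). Both inductants against the deletion gave 0.28 ± 0.07 (edgeR, adjusted p = 0.00694) over 36 frames, and 0.07 ± 0.06 (adjusted p = 0.395) over the 10 genes. The 36-frame sum was chosen after the data had been seen.

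**Figure D2:**
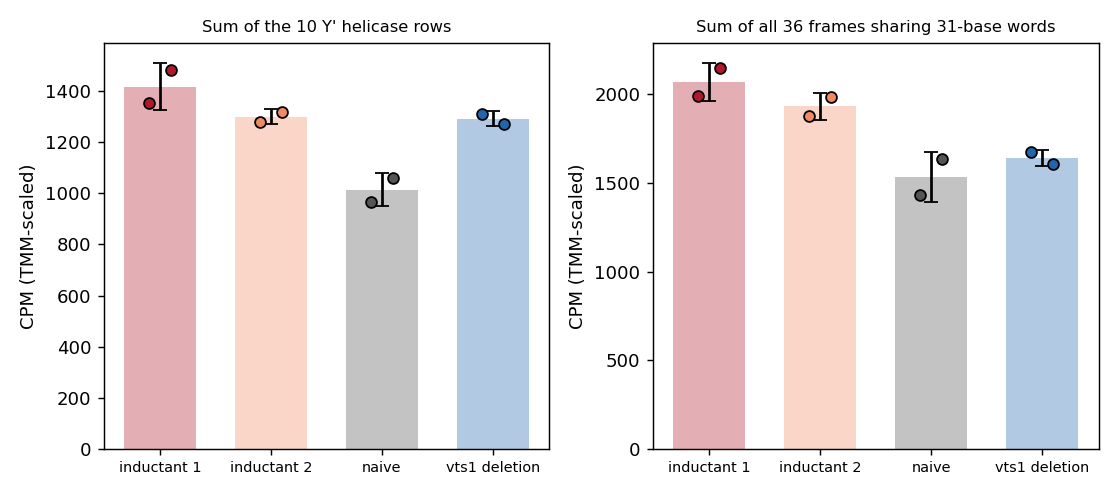
Summed level in TMM-scaled CPM of the 10 Y' helicase genes (left) and of the 36 frames that share 31-base words with them (right); points are libraries, bars are group means and error bars the SD (n = 2). In the left panel the deletion libraries (1312 and 1272) lie above naive (968 and 1060), and in the right panel they overlap (1674 and 1610 against 1434 and 1636).

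In TPM (the deposited measure of transcript abundance, which corrects for length), the genes of naive cells stood in the order YRF1-4 (36.7 ± 0.8, SD, n = 2), YRF1-1, YRF1-5 and YRF1-8 (25.2 ± 2.8 each), YLL066C (24.7 ± 1.0), YRF1-3 and YRF1-7 (23.8 ± 1.9 each), YRF1-2 (7.0 ± 2.5), YRF1-6 (0.61 ± 0.48) and YLL067C, which had under 1 estimated count. The 3 neighbours in that order after YRF1-4 did not differ beyond their spread.

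YRF1-1, YRF1-5 and YRF1-8, the identical long copies, were each at 136 and 154 CPM in naive cells, 217 and 196 with vts1 deleted, 204 and 187 in inductant 1 and 196 and 195 in inductant 2. All 6 libraries outside the naive group were above both naive libraries. Their log2 fold changes against naive were 0.43 ± 0.07 in both inductants (edgeR, adjusted p = 0.00503) and 0.51 ± 0.08 in the deletion (adjusted p = 0.0014).

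YRF1-3 and YRF1-7, the other identical copies, were each at 136 and 148 CPM in naive cells, 244 and 238 with vts1 deleted, 161 and 200 in inductant 1 and 198 and 188 in inductant 2. The deletion libraries were the highest and overlapped no other group. Their log2 fold changes against naive were 0.40 ± 0.08 in both inductants (edgeR, adjusted p = 0.0169) and 0.76 ± 0.10 in the deletion (adjusted p = 0.000299). Both inductants were lower than the deletion (log2 fold change −0.37 ± 0.08, edgeR, adjusted p = 0.00547). The call in both inductants against naive did not hold without inductant 2 replicate 1 (adjusted p = 0.0546) or naive replicate 1 (0.0964), and that against the deletion did not hold without deletion replicate 1 (0.054).

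YRF1-6, which differs from those by the bases shown, followed another pattern. It was at 59.0 and 108 CPM in inductant 1 and 1.49 and 2.18 in inductant 2, beside 1.60 and 5.57 in naive cells and 11.3 and 3.70 with vts1 deleted. Both inductant 1 libraries were above all others. The log2 fold change of inductant 1 against naive was 4.51 ± 0.81 and missed the threshold by edgeR (adjusted p = 0.0648), as did inductant 2 against inductant 1 (−5.51 ± 0.90, adjusted p = 0.112); DESeq2 gave 9.83e-06 and 3.41e-07 for these.

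When YRF1-6 was added to YRF1-3 and YRF1-7, the 3 genes together were at 381 and 509 CPM in inductant 1 and 397 and 378 in inductant 2, beside 274 and 301 in naive cells and 500 and 479 with vts1 deleted. The summed libraries of inductant 1 thus overlapped those of inductant 2 and of the deletion. As described with the sequences, the bases that mark YRF1-6 also stand in YLL066C, YLL067C, YML133C, YHR219W, YFL068W and YHL050C. Which of these frames the reads came from was not tested.

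YLL067C, the outermost copy at the left end of chromosome XII, was counted in inductant 1 only, with 181 and 204 estimated counts (9.14 and 7.86 CPM). In each of the 6 other libraries it had under 1 estimated count. Against a floor of 3 counts per library, the lower inductant 1 library was at least 52.8-fold higher than inductant 2, at least 55.0-fold higher than naive and at least 52.7-fold higher than the deletion. The floor covers counting error only and not the division of reads with YLL066C, which holds 93.7% of the words of YLL067C. Added together, the pair was at 109 and 126 CPM in inductant 1 and 93.3 and 95.4 in inductant 2. In naive cells the pair was at 98.1 and 89.7 CPM and in the deletion at 0.23 and 19.3. YLL067C passed the filter on low counts through inductant 1 alone, so the adjusted p of inductant 1 against naive (0.00105 by edgeR) is given without further reading. In limma on TPM it was 0.0811 with a pseudocount of 1 and 0.25 with 0.1.

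YLL066C, the inner copy of the same pair, was at 98.1 and 89.7 CPM in naive cells, 99.4 and 119 in inductant 1 and 93.3 and 95.4 in inductant 2. In the deletion it was at 0.24 and 19.3 CPM, from 5.28 and 389 estimated counts. The deletion libraries were below all others and far from each other. The log2 fold change against naive was −3.29 ± 1.15 and missed the threshold (edgeR, adjusted p = 0.117). Without deletion replicate 1 it was −2.28 (adjusted p = 1.99e-05) and without deletion replicate 2 it was −8.66 (adjusted p = 1.25e-07); in these fits the lone deletion library is assumed to vary like the other groups. YLL066C has no word of its own.

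YRF1-2, the copy at the right end of chromosome V, was at 71.2 and 49.8 CPM in inductant 1 and 49.8 and 47.3 in inductant 2, beside 28.6 and 46.3 in naive cells and 15.5 and 37.3 with vts1 deleted. All 4 inductant libraries were above both naive ones, by a margin smaller than the gap between the naive libraries. Its log2 fold changes against naive were 0.53 ± 0.44 in both inductants (edgeR, adjusted p = 0.509) and −0.51 ± 0.51 in the deletion (adjusted p = 0.524).

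YRF1-4, the inner copy at the right end of chromosome XII, was at 180 and 236 CPM in inductant 1 and 152 and 214 in inductant 2, beside 161 and 161 in naive cells and 143 and 149 with vts1 deleted. Inductant 2 overlapped naive. The log2 fold changes against naive were 0.28 ± 0.16 in both inductants (edgeR, adjusted p = 0.308) and −0.14 ± 0.18 in the deletion (adjusted p = 0.623).

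**Figure D3:**
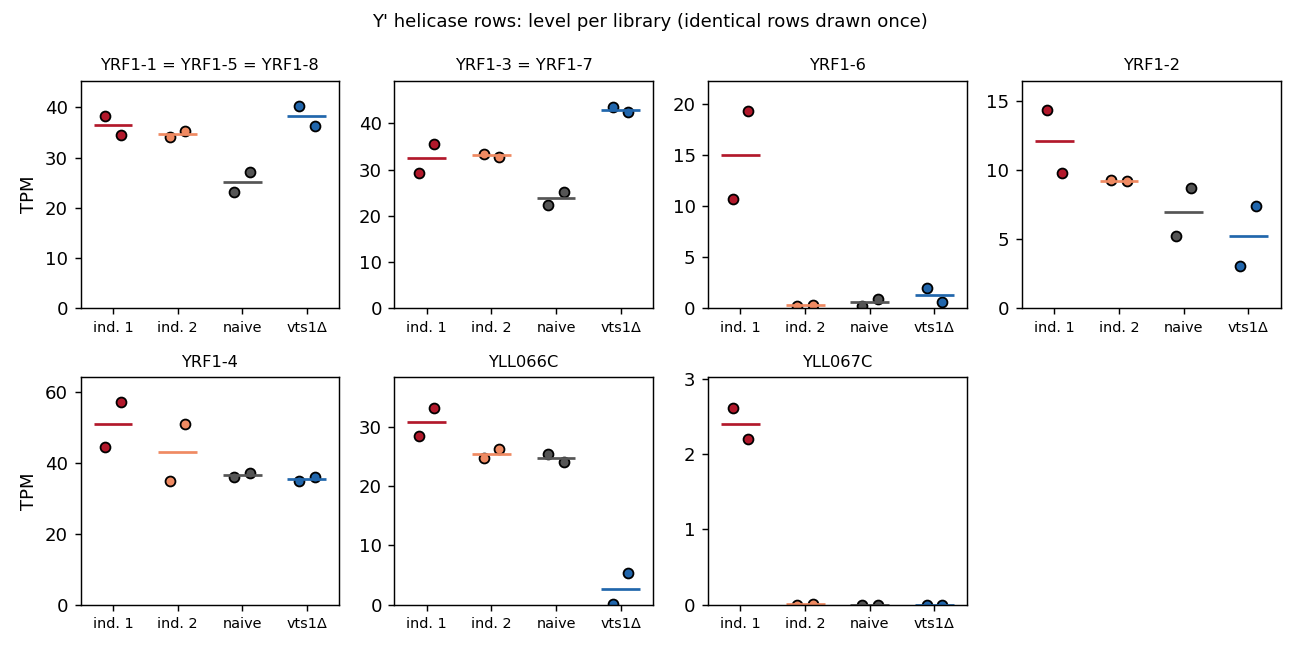
Level in TPM of each distinct Y' helicase sequence in the 8 libraries (points) with the group mean (line); genes with identical sequence are drawn once and the vertical scales differ. YRF1-6 and YLL067C are high in inductant 1, and YLL066C is low in the deletion (0.067 and 5.41 TPM).

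Counted over the 10 genes, 5 were called higher in both inductants against naive (YRF1-1, YRF1-3, YRF1-5, YRF1-7 and YRF1-8), at an adjusted p under 0.05, and they hold 2 distinct sequences. The background there was 8.57% of the 6230 rows tested, 2.97% higher and 5.6% lower. In inductant 1 against naive 4 genes were called higher (YLL067C, YRF1-1, YRF1-5 and YRF1-8), beside a background of 4.4%, of which 1.2% higher and 3.19% lower. In inductant 2 against naive the 5 genes named first were called higher, beside 9.04% of all rows, 3.24% higher and 5.79% lower. The same 5 were called higher in the deletion against naive, beside 26.3%, 11.7% higher and 14.6% lower. Both inductants against the deletion gave 1 gene higher (YLL067C) and 2 lower (YRF1-3 and YRF1-7), beside 37.6%, 18.7% higher and 19% lower. The YLL067C call there rests on inductant 1, since inductant 2 had under 1 estimated count in each library. It was lost with limma on TPM (adjusted p = 0.0979 and 0.405 with pseudocounts 1 and 0.1). It was also lost without either inductant 1 library, inductant 2 replicate 2 or either deletion library. Inductant 2 against inductant 1 gave 1 gene lower (YLL067C), beside 0.449%, 0.0482% higher and 0.401% lower. Nothing is read from these counts, since the genes were chosen with these comparisons known and identical copies count repeatedly. The median log2 fold change of the 10 genes was 0.43 in both inductants and 0.51 in the deletion against naive. Over all rows tested it was −0.01 and 0.00. Both medians of the 10 genes are the value of YRF1-1, YRF1-5 and YRF1-8, whose identical copies enter repeatedly, so nothing is read from them either.

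**Figure D4:**
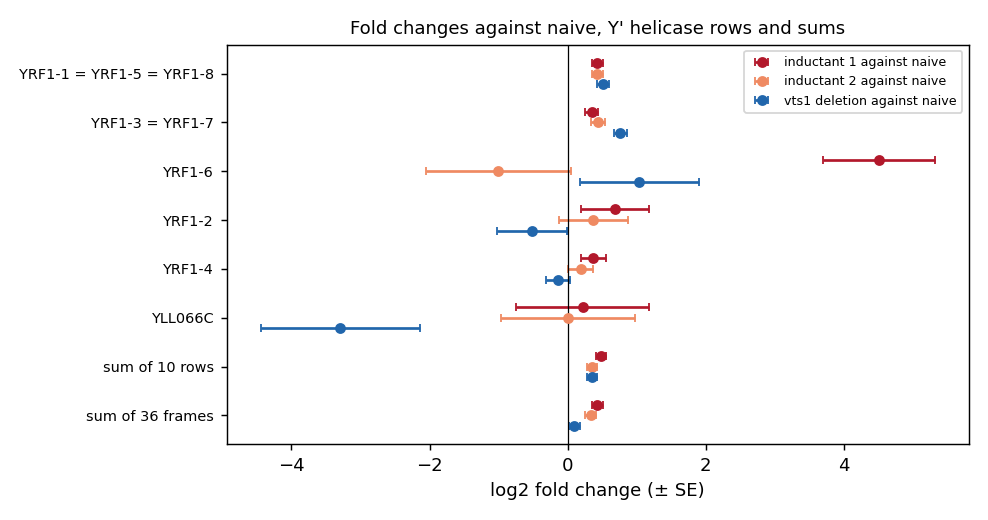
Log2 fold changes against naive (± SE, edgeR) for 6 of the 7 distinct sequences and for the sums over 10 genes and 36 frames; YLL067C is left out because its comparison groups are at the floor. In the deletion YRF1-6 is furthest to the right (1.03 ± 0.86, not called). YRF1-3 and YRF1-7 are at 0.76 ± 0.10, whereas the 36-frame sum (0.10) is near 0.

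The division of the summed counts among the genes also differed between the groups. YRF1-1, YRF1-5 and YRF1-8 took on average 14.3% of the sum each in naive cells, 16.0% with vts1 deleted, and 13.8% and 15.0% in inductants 1 and 2. YRF1-3 and YRF1-7 took 14.0% each in naive cells, 18.7% with vts1 deleted, and 12.7% and 14.9% in inductants 1 and 2. YRF1-6 took 5.83% in inductant 1 and 0.141%, 0.345% and 0.576% in inductant 2, naive and the deletion. YLL066C took 7.68%, 7.26% and 9.30% in inductant 1, inductant 2 and naive, and 0.768% in the deletion.

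**Figure D5:**
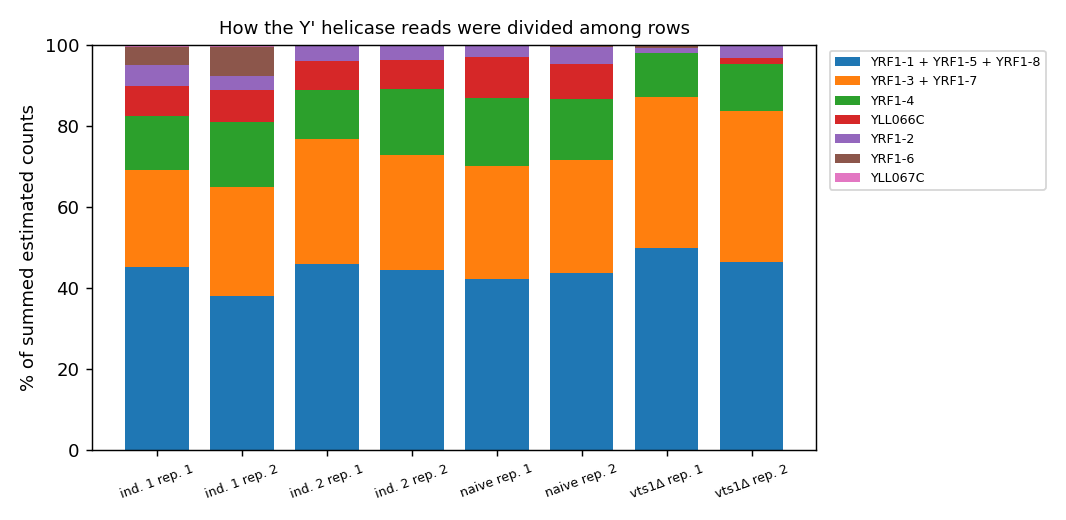
Percent of the summed estimated counts of the 10 Y' helicase genes given to each distinct sequence in each of the 8 libraries. YRF1-6 takes 4.36% and 7.30% in the inductant 1 libraries, and YLL066C takes 0.0183% and 1.52% in the deletion libraries.

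Other Y' helicase-like frames are annotated at many chromosome ends. Of 26 such frames on a list by name, 21 were tested. This list is not the same as the 26 frames that share a word with the 10 genes. Another 4 frames of the list (YHR218W, YLR464W, YNL337W and YNL338W) were at 0 in all libraries. In both inductants against naive 2 of the 21 were called (9.52%, beside 8.57% of all rows), both higher, and the median log2 fold change was 0.41. YEL076C had 0.71 ± 0.17 (edgeR, adjusted p = 0.0276) and YML133C 0.60 ± 0.13 (adjusted p = 0.0257). Without single libraries these calls did not always hold, with adjusted p-values of up to 0.091 for YEL076C and up to 0.207 for YML133C. The 3 frames with the highest mean TPM, YPR202W (73.1), YPR203W (44.5) and YER189W (43.8), had log2 fold changes of 0.47 ± 0.15, 0.41 ± 0.17 and 0.61 ± 0.17 and did not pass the test.

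In the deletion against naive 3 of the 21 were called (14.3%, beside 26.3% of all rows), and the median log2 fold change was −0.01. YEL076C was higher by 0.78 ± 0.19 (edgeR, adjusted p = 0.0131), a call lost without naive replicate 2 (0.0675) and without deletion replicate 1 (0.140). YPR204W and YBL113C, named after their values were seen, were lower. YPR204W shares 99.7% of its words with the 10 genes and was at 106 and 154 CPM in naive cells, 37.8 and 19.4 with vts1 deleted, 136 and 133 in inductant 1 and 130 and 137 in inductant 2. Both deletion libraries were below all others, with a log2 fold change of −2.18 ± 0.36 against naive (edgeR, adjusted p = 0.0157; 0.0556 without naive replicate 2). YBL113C had −0.99 ± 0.27 (adjusted p = 0.034), a call that was lost when any of the naive or deletion libraries was left out. YML133C was at 53.4 and 39.7 CPM in the deletion against 61.7 and 65.7 in naive and 84.7 to 110 in the inductants, and it was higher in both inductants than in the deletion by 1.05 ± 0.13 (edgeR, adjusted p = 0.000477). So in the deletion the estimated levels of some members of the shared sequence family were higher and those of others lower. The sum over 36 frames was near naive. Reads of shared sequence are divided among these frames, so the level of a single frame is partly the outcome of that division. Whether the opposite changes lie in the transcripts or in the division of reads was not tested.

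Genes outside the Y' elements were set beside them. Of 166 tested genes within 20 kb of a chromosome end, the Y' frames left out, 14 were called in both inductants against naive (6 higher, 8 lower). This is 8.43%, beside 8.57% of all rows, and the median log2 fold change was 0.06. In the deletion 51 were called (11 higher, 40 lower) with a median of −0.18. This is 30.7%, beside 26.3% of all rows, 11.7% higher and 14.6% lower. Of the 8 nearest tested genes on the centromere side of the Y' helicase genes none was called in both inductants. In the deletion 4 of them were lower, namely PAU18 (−0.76 ± 0.24), COS6 (−0.31 ± 0.08), YLR460C (−1.17 ± 0.31) and COS1 (−0.52 ± 0.13). ERR1 and ERR2, enolase-related genes with identical values in each library, were both higher (1.58 ± 0.39), while YDR541C and YER188W were not called. Each of these 6 calls was lost without at least 1 of the deletion libraries.

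None of 23 silencing genes was called in both inductants against naive by edgeR, beside 8.57% of all rows, and the median log2 fold change was 0.06. YKU70, which encodes a DNA end-binding protein, had −0.27 ± 0.08 (adjusted p = 0.0548; called without the filter on low counts, at 0.0479), SAS5, of a histone acetyltransferase complex, 0.21 ± 0.11 (0.239) and SIR2, the histone deacetylase of silent chromatin, 0.20 ± 0.13 (0.355). In inductant 2 against naive 2 of the 23 were called (1 higher, 1 lower), beside 9.04% of all rows, and in inductant 1 none, beside 4.4%. In the deletion 5 were called (21.7%, beside 26.3% of all rows): SIR2 (0.47 ± 0.15), ABF1 (0.42 ± 0.10), SAS2 (0.60 ± 0.14) and TBF1 (0.32 ± 0.08) higher, and ESC1 (−0.31 ± 0.07) lower. Each of these calls was lost without at least 1 of the deletion libraries, and that of SIR2 also without naive replicate 2 (edgeR, adjusted p = 0.136).

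Of 21 telomere maintenance genes 1 was called in both inductants, TEL1, a telomere length kinase gene, with 0.26 ± 0.07 (edgeR, adjusted p = 0.0415), beside 8.57% of all rows. The TEL1 call was lost when any library other than naive replicate 2 was left out (adjusted p up to 0.19). EST2, the catalytic subunit of telomerase, had 0.53 ± 0.15 (adjusted p = 0.0576; 0.0339 by DESeq2), TEN1 −0.40 ± 0.27 (0.366) and RAD59, a recombination gene, −0.36 ± 0.19 (0.245). In inductant 2 against naive 4 of the 21 were called (3 higher, 1 lower, 19.0%, beside 9.04% of all rows), and in inductant 1 none. In the deletion 3 were called higher (14.3%, beside 11.7%), CDC13 (0.29 ± 0.09), PIF1 (0.27 ± 0.08) and NDJ1 (0.65 ± 0.15), each lost without deletion replicate 1. The calls of CDC13 and PIF1 were also lost without deletion replicate 2 or naive replicate 2, and that of CDC13 without naive replicate 1. Where these lists had few called genes, those outside the 3 with the largest change in the inductants were named after their values were seen.

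The COS genes, another subtelomeric family with near-identical copies, had 0 of 11 called in both inductants, beside 8.57% of all rows. The 3 with the largest fold were COS4 (0.70 ± 0.61), COS8 (0.27 ± 0.28) and COS7 (0.27 ± 0.18). In the deletion 4 were lower, COS1, COS6 and the pair COS2 and COS3, which had equal values (−0.24 ± 0.07 each), beside 14.6% of all rows lower. The calls of COS2 and COS3 were lost without either deletion library, either inductant 1 library or naive replicate 1.

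Of 28 genes of the G1 to S transition, 10 were called higher in both inductants against naive (35.7%, beside 2.97% of all rows), with a median log2 fold change of 0.26. YOX1, a repressor of G1 genes, rose by 1.15 ± 0.11 (edgeR, adjusted p = 0.000176), PCL1, a cyclin, by 0.84 ± 0.10 and CDC45, a replication factor, by 0.72 ± 0.09. In the deletion 16 were higher (57.1%, beside 11.7% of all rows) with a median of 0.36. The part of these changes in the Y' helicase levels was not tested.

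Over the 8 libraries, the genes outside the Y' lists whose log2 CPM was most like that of the summed 10 genes were COG4 (Pearson r = 0.958), NSP1 (0.958), SUV3 (0.954), SKS1 (0.950) and POL2 (0.940). They were the highest of all rows tested, the libraries share their depth scaling, and the values are given as a description.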

How the data were processed

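Total RNA was depleted of rRNA with Ribo-Zero and sequenced from 8 libraries in 4 groups of 2, per the labels' protocols; groups and replicate numbers came from the sample titles. Per the submitters' processing notes, the authors used kallisto and build R64, and the files hold 6713 open reading frames. Not given in the sources used here are the version of kallisto, the read layout and whether strand was used. Per the file headers, the deposited values are the estimated count and the TPM of each frame. Estimated counts split shared reads between copies, and TPM rests on the same split, so single copies of a near-identical family are uncertain.

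Estimated counts were rounded to whole numbers, scaled by TMM, filtered by filterByExpr (6230 rows kept) and tested with edgeR 4.0.16 (robust quasi-likelihood, two-sided, 1 mean per group over all 8 libraries, 4 residual degrees of freedom) in R 4.3.3. Adjusted p-values are Benjamini-Hochberg over all rows tested, and a row was called at 0.05. For sums, the added rows were replaced by their sum and the table refitted. Alternatives were DESeq2 1.42.0, its size factors in edgeR, no filter, limma 3.58.1 on log2(TPM + 1) and log2(TPM + 0.1), a replicate block, leaving out each library, and other sums. The floor is 3 counts per library and covers counting error only. The edgeR procedure was tested on simulated data.

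Sequences and positions were read from the RefSeq genome of R64, and 31-base words were compared among 6014 coding sequences. Named genes were all members, the 3 most abundant other Y' frames and those called in both inductants, the 3 genes of each list with the largest change there, the nearest tested gene beside each member, and the 5 rows most like the sum. The members and lists were chosen with earlier results of these data known.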

Additional observations from a re-analysis of the deposited data

Results flagged for a closer look

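YLL067C differed between the inductants, which went through the same treatment. Its lower library in inductant 1 was at least 52.8-fold above a floor of 3 counts per library in inductant 2, from 181 and 204 estimated counts against under 1. The adjusted p of inductant 2 against inductant 1 was 0.00312 by edgeR's quasi-likelihood test, and 0.0516 without inductant 1 replicate 1. YLL067C passed the filter on low counts through inductant 1 alone, so this p is given without further reading. The floor does not cover the division of reads between YLL067C and YLL066C. Added together, this pair was at 109 and 126 CPM in inductant 1 and 93.3 and 95.4 in inductant 2. How many of the YLL067C reads cover the 37 words that only YLL067C holds among the searched frames was not tested.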

How the results depend on the processing

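The sum over the 10 genes kept its direction under all alternatives run, in each of the 6 comparisons. With limma on TPM (pseudocounts 1 and 0.1) inductant 1 against naive was 0.57 (adjusted p = 0.0576 and 0.0573) and inductant 2 against naive 0.37 (adjusted p = 0.0514 and 0.0508), neither called, while edgeR on counts called both. The sums over every Y' helicase-like frame and over every searched frame sharing a word gave 0.11 and 0.10 in the deletion against naive, no longer called. In both inductants against the deletion they gave 0.26 and 0.28, now called. Leaving out single libraries gave a range of 0.41 to 0.55 for inductant 1, 0.28 to 0.42 for inductant 2 and 0.29 to 0.42 for the deletion against naive. Calls were lost without inductant 1 replicate 2, without either inductant 2 library and without deletion replicate 1, respectively.

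The number of genes called out of 10 moved more. With either limma pseudocount it was 3 in both inductants against naive and 0 in inductant 1, in inductant 2 and between the inductants. With DESeq2 it was 5 in both inductants against the deletion. Leaving out single libraries it ranged from 3 to 5 in both inductants against naive, 1 to 6 in inductant 1, 0 to 5 in inductant 2, 1 to 4 in both inductants against the deletion and 0 to 1 between the inductants. In both inductants against naive the libraries that moved the count were inductant 2 replicate 1 and naive replicate 1. In inductant 1 against naive it was either inductant 1 library and naive replicate 2. In inductant 2 against naive it was either inductant 2 library and naive replicate 1. In both inductants against the deletion it was either deletion library, either inductant 2 library and inductant 1 replicate 2. Between the inductants it was inductant 1 replicate 1. Over all rows, inductant 1 against naive had 274 calls by edgeR, 486 by DESeq2, 5 by limma and 422 with the replicate block. The cause of these differences was not tested.

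Replicate numbers are shared by the groups, but the differences between replicates 1 and 2 correlated by −0.07 to 0.22 between groups, so the numbers were not taken to pair the samples. With the replicate number as a block, the sums were 0.42, 0.48, 0.36 and 0.35 in both inductants, inductant 1, inductant 2 and the deletion against naive, with no call changed. The genes called were then 6 in inductant 1 against naive and 4 in both inductants against the deletion.

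Reversals of sign occurred in 27 comparisons of single genes, none of which passed the edgeR test. For inductant 2 against naive, YLL066C was −0.00968 without the filter and −0.00342 with the block. For inductant 1 against naive, YBL113C was −0.00244 and −0.0117 under the same settings. For both inductants against naive, limma with pseudocounts 1 and 0.1 gave ABF1 0.0503 and 0.0516 and ESC1 0.0529 and 0.0541. For the deletion against naive, limma with pseudocounts 1 and 0.1 gave YPR202W 0.0839 and 0.0853, SAS5 0.00653 and 0.00658, and RAD59 0.0483 and 0.0526. The other reversals came from leaving out single libraries. Their ranges between the inductants (2 against 1) were −0.0704 to 0.0442 for YRF1-1, −0.0699 to 0.248 for YRF1-3, −0.473 to 0.038 for YRF1-4, −0.0624 to 0.44 for YPR202W, −0.0702 to 0.0282 for YPR204W and −0.601 to 0.217 for YBL113C. For inductant 2 against naive they were −1.61 to 0.181 for YRF1-6, −0.106 to 0.405 for YRF1-4, −0.0563 to 0.0626 for YLL066C and −0.221 to 0.327 for YPR204W. For inductant 1 against naive they were −0.201 to 0.336 for YPR204W and −0.459 to 0.359 for YBL113C. For both inductants against naive they were −0.211 to 0.332 for YPR204W, −0.351 to 0.0581 for YBL113C, −0.0787 to 0.253 for PAU18, −0.00328 to 0.586 for YER188W, −0.0679 to 0.266 for COS1, −0.144 to 0.108 for ABF1, −0.0800 to 0.136 for SAS2 and −0.0485 to 0.00861 for ESC1. For the deletion against naive they were −0.128 to 0.131 for YPR202W, −0.23 to 0.0602 for SAS5, −0.147 to 0.0741 for RAD59, −2.59 to 0.234 for COS4 and −0.138 to 0.459 for COS7. For both inductants against the deletion they were −0.255 to 0.119 for YEL076C and −0.026 to 0.436 for YER189W.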
